A study of Mus musculus with 10 samples.

Results

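The antioxidant and redox genes described here were 36 mouse genes, chosen by symbol: the NRF2 switch and its inducible targets, the glutathione and thioredoxin systems, peroxiredoxins, superoxide dismutases, catalase and glutathione peroxidases, glutathione transferases, metallothioneins, subunits of superoxide-producing oxidases and an uncoupling protein. All 36 had a TPM value (a transcript level corrected for transcript length) above 0 in at least 9 of 10 mice, and all 36 were among the 13297 nuclear protein-coding genes tested, of 29564 genes listed. Not every gene in the set encodes an enzyme: Nfe2l2 is a transcription factor, Keap1 its inhibitor and Ucp2 a carrier.

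Left ventricular RNA was sequenced from 2 groups of 5 wild-type male mice of the C57BL/6J strain, listed as C57BL6 in the sample labels. HFD+mTAC mice, which model HFpEF (heart failure in which the ejection fraction is preserved), underwent a moderate constriction of the transverse aorta (mTAC) at 11 weeks of age and from then on ate a high-fat diet (HFD) with 60 kcal% fat, which by the study's methods went on until the mice were killed. Control mice had no constriction and ate chow with 10 kcal% fat. The induction period listed for both groups was 16 weeks. Both groups carry the treatment label Vehicle, and the protocol in the labels, which names the HFD+mTAC mice only, describes it as DMSO, PEG-300 and water at 10 mL/kg once a day for 6 to 9 weeks. By the study's methods, dosing began after the HFpEF features were established. Diet and constriction were always given together, so their effects cannot be told apart, and every animal was male.

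Superoxide and hydrogen peroxide arise in the heart from the mitochondrial respiratory chain and from NADPH oxidases. Superoxide dismutases turn superoxide into hydrogen peroxide, which catalase, glutathione peroxidases and peroxiredoxins remove. Glutathione peroxidases and peroxiredoxins draw on reduced glutathione and thioredoxin, which NADPH keeps reduced. NRF2, encoded by Nfe2l2, is held back and marked for degradation by KEAP1, and under oxidant or electrophile stress it enters the nucleus and switches on many of these genes through antioxidant response elements.

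To show where such elements could lie close to the start sites, the RefSeq promoter windows (build GRCm38.p6, 250 bases before to 50 after each start) were searched on both strands for 2 motifs, the antioxidant response element core TGACNNNGC and the stricter NRF2 and small MAF site TGANTCAGC. A site that reads TGACTCAGC counts for both. Of the 36 genes, 30 had at least 1 window in the table, with 36 windows in all. The core was present in a window of 9 of the 30, namely Gclm, Gsta3, Mt2, Nfe2l2, Prdx1, Sod1, Srxn1, Txnrd1 and Ucp2. Over all 32851 windows 12.4% held it, against 25% of the 36 windows. The stricter site was present in 3 of the 30, Mt2, Prdx1 and Srxn1. By window it was present in 8.33% of the 36, against 1.19% of all windows. The 4 windows below are those of the 3 genes with the stricter site and of Ucp2, the gene with the core and the largest difference in counts. Each is read 5′ to 3′ on the strand of the gene with the matches in capitals:
Srxn1, chr2:152105274-152105573, plus strand: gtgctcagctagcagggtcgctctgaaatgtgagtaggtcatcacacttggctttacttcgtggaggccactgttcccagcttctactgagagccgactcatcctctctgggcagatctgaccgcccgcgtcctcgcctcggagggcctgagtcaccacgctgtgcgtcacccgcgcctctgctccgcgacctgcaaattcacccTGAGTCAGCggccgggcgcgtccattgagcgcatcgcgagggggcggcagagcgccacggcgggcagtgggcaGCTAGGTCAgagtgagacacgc
Prdx1, chr4:116685349-116685648, plus strand: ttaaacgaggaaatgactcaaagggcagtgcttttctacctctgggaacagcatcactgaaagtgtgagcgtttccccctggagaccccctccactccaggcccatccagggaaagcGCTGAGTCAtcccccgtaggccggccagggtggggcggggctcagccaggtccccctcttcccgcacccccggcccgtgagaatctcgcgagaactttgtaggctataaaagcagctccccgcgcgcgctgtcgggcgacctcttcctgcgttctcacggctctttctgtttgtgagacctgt
Mt2, chr8:94172368-94172667, plus strand: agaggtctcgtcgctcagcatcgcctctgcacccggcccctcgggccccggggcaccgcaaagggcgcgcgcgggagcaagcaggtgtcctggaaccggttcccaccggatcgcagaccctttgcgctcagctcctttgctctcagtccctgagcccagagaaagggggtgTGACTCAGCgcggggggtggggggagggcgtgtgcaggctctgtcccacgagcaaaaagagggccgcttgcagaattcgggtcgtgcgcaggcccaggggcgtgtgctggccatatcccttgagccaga
Ucp2, chr7:100493108-100493407, plus strand: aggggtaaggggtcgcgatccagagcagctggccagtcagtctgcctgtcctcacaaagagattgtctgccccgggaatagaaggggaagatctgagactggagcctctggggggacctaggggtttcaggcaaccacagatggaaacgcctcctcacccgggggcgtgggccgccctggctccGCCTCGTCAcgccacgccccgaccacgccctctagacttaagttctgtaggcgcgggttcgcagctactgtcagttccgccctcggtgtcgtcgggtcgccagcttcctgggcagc
The stricter match began 45 bases before the start in Srxn1, 133 before it in Prdx1 and 79 before it in Mt2, and the core match of Ucp2 began 66 bases before it. Such a match describes the letters only. The log2 fold changes of these 4 genes, HFD+mTAC over control, did not share a direction, at -0.25 for Srxn1, -0.08 for Prdx1, 0.11 for Mt2 and 0.56 for Ucp2, and none passed the test described below.

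Totals of 34170139 to 53672260 estimated counts per mouse were deposited, of which 43.8 to 52.7% came from mitochondrial genes. Neither the total (exact permutation test, two-sided, p = 0.444, n = 5 and 5) nor the mitochondrial share (exact permutation test, two-sided, p = 0.246) passed a threshold of 0.05. The summed counts of 6 cardiomyocyte markers did not overlap between the groups. They were 42695 to 44821 CPM (counts scaled to the TMM-normalized library size of the genes tested) in control mice and 35996 to 40034 CPM in HFD+mTAC mice. The sum rests mostly on Actc1, Tnnt2 and Tnni3, with control means of 15207, 13458 and 8425 CPM. All 6 markers had the lower mean in HFD+mTAC mice, though none passed the test (edgeR, adjusted p under 0.05). The log2 fold change of Ryr2 was only -0.07 (SE 0.15), and mice TT-588 and TT-589, at 1466 and 1420 CPM, were above every control in it. The 5 adipocyte markers summed to 0.343 to 4.64 CPM in control mice and 0.0605 to 2.00 CPM in HFD+mTAC mice. In bulk tissue, fewer cells of a type and less RNA per cell cannot be told apart, and the part of cell composition in the values below was not tested.

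As a set, the redox genes were higher about as often as they were lower in HFD+mTAC mice. With edgeR's quasi-likelihood test on counts, 0 of 36 had an adjusted p under 0.05, where 8 of the 13297 genes tested (0.0602%) did. At an unadjusted p under 0.05 there were 5 of 36 (13.9%), 3 higher (Ucp2, Cat and Cybb) and 2 lower (Gpx4 and Srxn1) in HFD+mTAC mice, against a background of 8.27% of all genes tested. DESeq2 called 1 of 36, Gpx4, against 0.921% of the genes it gave an adjusted p. Of the 36, 19 were higher and 17 lower, with a median log2 fold change of 0.03 beside 0.00 over all genes tested. The differences were small: 26 of the 36 (72.2%) had a log2 fold change under 0.15 in size, as did 57.7% of all genes tested. The median SE was 0.12 for the 36 and 0.15 over all genes tested, so the 2 shares do not compare genes measured equally well. In 0 of 36 were the CPM of the groups fully apart, where 1.96% of all genes tested were.

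**Figure D1:**
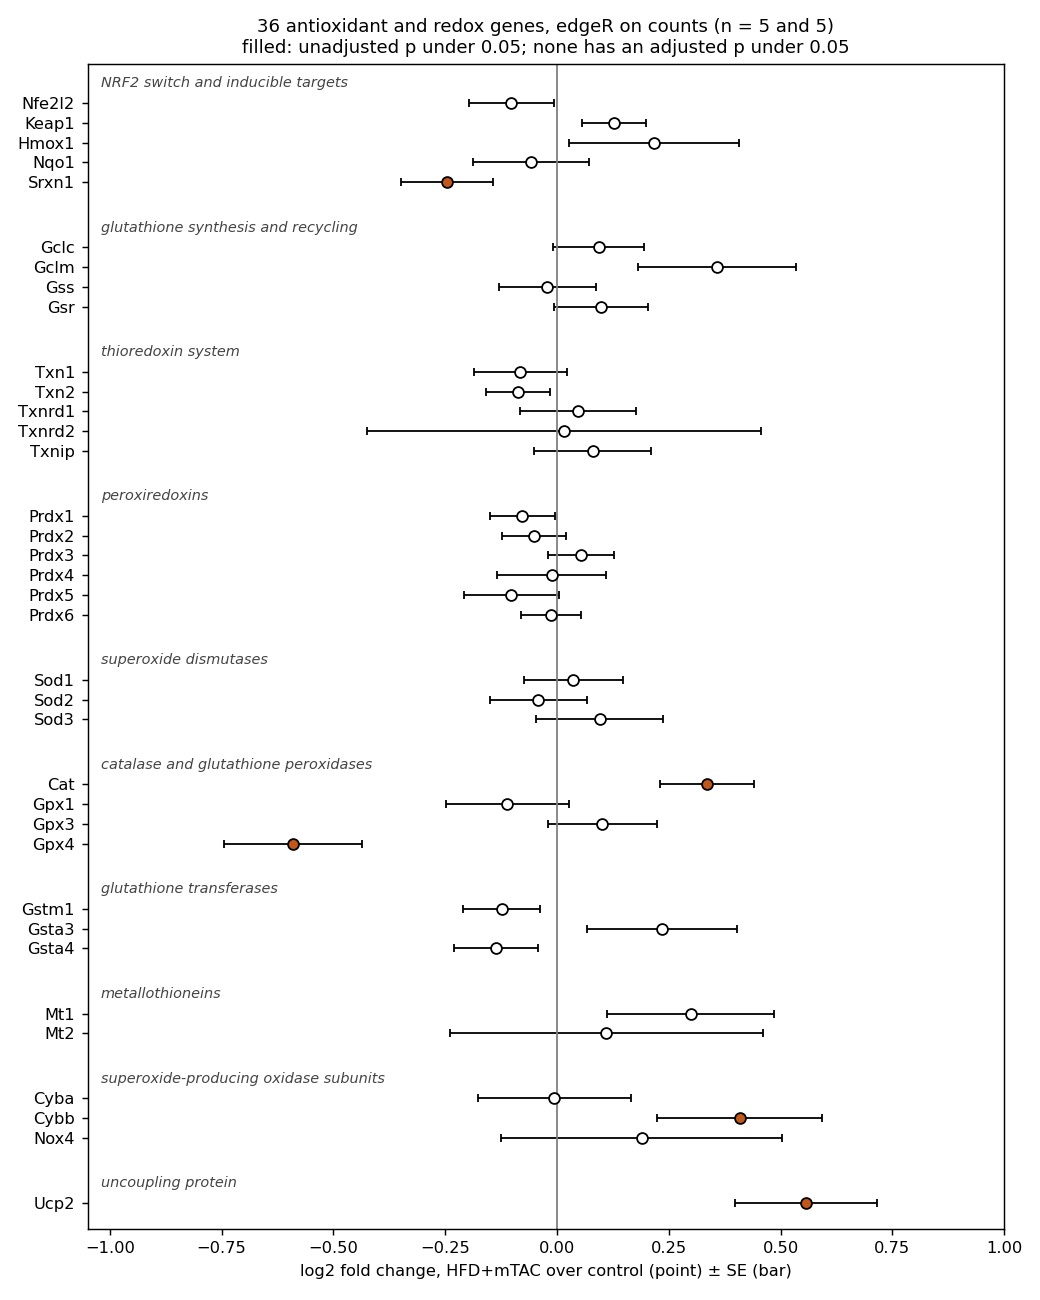
Log2 fold change of each of the 36 redox genes, HFD+mTAC over control (point, x axis) with its SE (bar), from edgeR on counts with 5 mice per group, grouped by role. Filled points mark the 5 genes with an unadjusted p under 0.05, Gpx4 and Srxn1 to the left of 0 and Cat, Cybb and Ucp2 to the right, and Txnrd2 has the widest bar.

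On the per-length scale the set spanned a 2106-fold range of mean TPM over all 10 mice. Sod1, the cytosolic superoxide dismutase, had the highest mean at 1580 TPM (range 1209 to 1777). It was followed by Gpx4 at 1044 TPM, Prdx5 at 803 TPM, Mt1 at 697 TPM and Txnip at 531 TPM, and 18 of the 36 genes were above 100 TPM. At the other end, 3 genes were under 5 TPM, namely Gsr at 3.02 TPM, Cybb at 2.67 TPM and Nox4 at 0.75 TPM. In 34 of the 35 neighbouring pairs of this order the ranges over mice overlapped. Both genes of a pair were measured in the same mice, and their order within each mouse was not tested. The exception was the step from Gclc, at 7.57 to 9.96 TPM, down to Gsr, at 2.36 to 3.88 TPM.

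**Figure D2:**
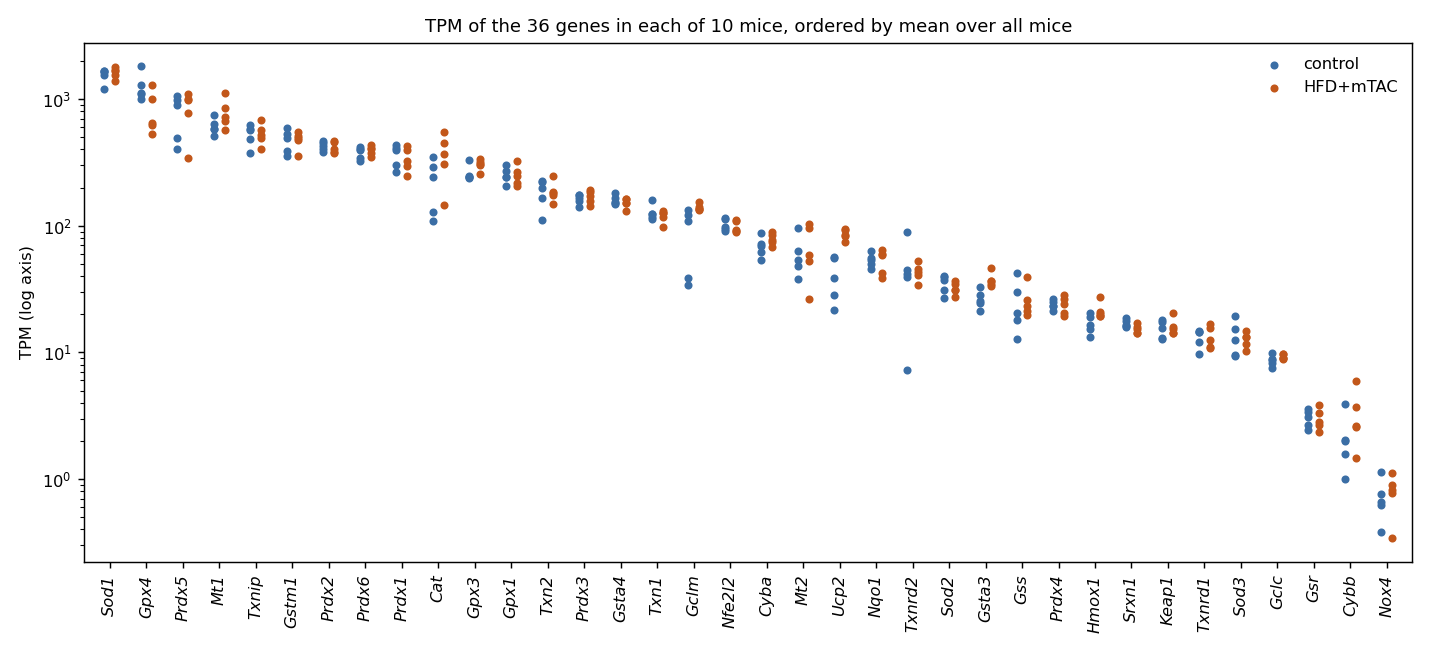
TPM (y axis, log scale) of the 36 redox genes in every mouse, blue for the 5 control mice and orange for the 5 HFD+mTAC mice, ordered by the mean over all mice. Sod1 heads the order at a mean of 1580 and Nox4 closes it at 0.75, and in Ucp2 and Gsta3 the colours do not overlap.

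TPM divides counts by an average effective length that salmon estimated for each gene and mouse after bias correction, and these lengths bear on the levels. In 7 of the 36 genes the mean effective length was above that of the longest annotated transcript, as it was in 47.7% of all genes with an annotated length. Gsr, which encodes glutathione reductase, had 10937 bases against 2673 for its longest transcript, and Sod2, the mitochondrial superoxide dismutase, had 13595 against 5861. Sod2 ranked 24 of 36 at 33.7 TPM, although its counts were 443 ± 55.7 CPM (SD, n = 5) in control mice. The top of the order rests on lengths too. Sod1 had a mean effective length of 308 bases, where its shortest annotated transcript has 641. In counts Sod1 had a mean of 466 CPM over all mice, below Txnip at 942 CPM and Prdx5 at 531 CPM.

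Of the enzymes that remove peroxides, catalase and phospholipid hydroperoxide glutathione peroxidase differed most, in opposite directions. Gpx4 (chr10:80047166-80056439, GRCm38, plus strand) encodes the selenoprotein that reduces lipid hydroperoxides within membranes and restrains ferroptosis. Its CPM was 545, 488, 665, 406 and 486 in the controls (TT-583 to TT-587, in this order throughout) against 369, 455, 329, 283 and 284 in the HFD+mTAC group (TT-588 to TT-592). The groups overlapped through mouse TT-589 alone, which lay above control mouse TT-586, and the other 4 HFD+mTAC mice were below every control. The means were 518 ± 95.8 and 344 ± 71.6 CPM (SD, n = 5 each), and the difference on the log2 scale was -0.59 (SE 0.15, edgeR adjusted p = 0.262, unadjusted p = 0.00217). Leaving out any 1 mouse kept the log2 fold change between -0.72 and -0.48, with unadjusted p between 0.000364 and 0.00716. DESeq2 alone, of the alternatives run, passed the threshold, with an adjusted p of 0.0356. The annotation names a processed pseudogene, Gpx4-ps2, with which reads could be shared.

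Cat (chr2:103453849-103485160, minus strand) encodes catalase, the peroxisomal enzyme that splits hydrogen peroxide. Its CPM was 402, 357, 403, 444 and 367 in controls against 551, 552, 498, 388 and 498 in HFD+mTAC mice. Mouse TT-591 lay within the control range and the other 4 HFD+mTAC mice lay above it. The log2 fold change was 0.33 (SE 0.10, edgeR adjusted p = 0.371, unadjusted p = 0.00750), with 395 ± 34.4 and 497 ± 66.6 CPM (SD, n = 5 each). Leaving out mouse TT-591 gave a log2 fold change of 0.41, the highest value of that series.

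The other members of the group showed smaller differences. Gpx1, the abundant cytosolic glutathione peroxidase, had 58.4 to 81.0 CPM in control mice and 54.8 to 87.6 CPM in HFD+mTAC mice (log2 fold change -0.11, SE 0.14). Gpx3, the secreted form, had 301 to 443 and 297 to 420 CPM (log2 fold change 0.10, SE 0.12). Neither passed the test (edgeR adjusted p = 0.898 and 0.894), and their groups overlapped over nearly the whole range.

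Ucp2 (chr7:100493337-100502020, plus strand) encodes an inner mitochondrial membrane carrier that is linked to limiting mitochondrial superoxide. Its CPM was 71.7, 64.8, 49.5, 55.0 and 82.3 in controls against 71.9, 84.1, 114, 114 and 91.0 in HFD+mTAC mice. The 4 HFD+mTAC mice other than TT-588 were above every control. On the log2 scale the difference was 0.56 (SE 0.16, edgeR adjusted p = 0.309, unadjusted p = 0.00400), and it stayed between 0.47 and 0.66 when any 1 mouse was left out. Ucp2 is also expressed by cells other than cardiomyocytes. The 5 endothelial markers summed to 1463 to 1838 CPM in control and 1494 to 2122 CPM in HFD+mTAC mice, and the 6 macrophage markers to 151 to 236 and 173 to 227 CPM, so that both sums overlapped between the groups. Mice TT-590 and TT-591, the 2 highest for Ucp2 at 114 CPM each, also had the 2 highest endothelial sums of the HFD+mTAC group, 1810 and 2122 CPM, and TT-591 had the highest sum of the 5 smooth muscle and pericyte markers, 2762 CPM. The part of these cells in the Ucp2 values was not tested.

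**Figure D3:**
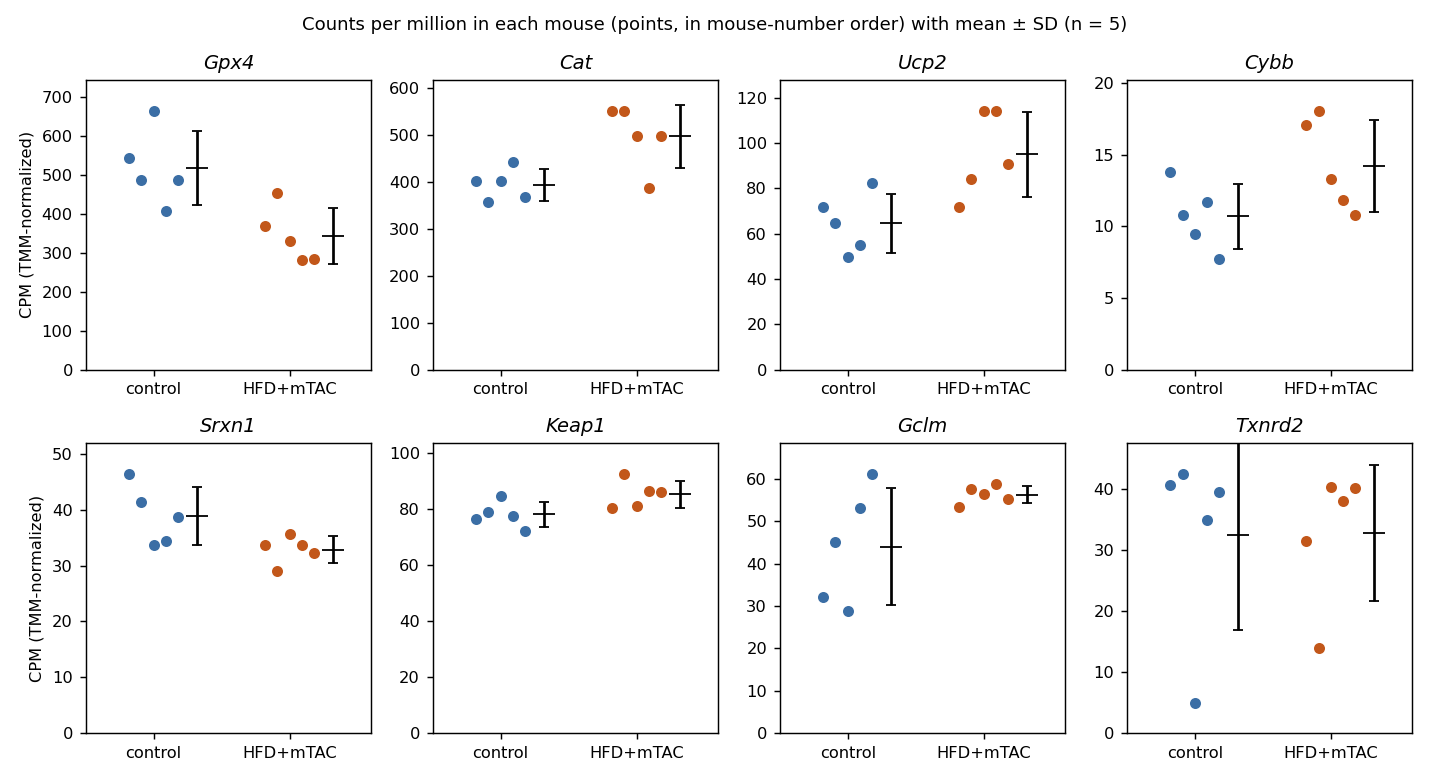
CPM (y axis, from 0) of 8 redox genes in each mouse (points, in the order of the mouse numbers) with the mean and SD of 5 mice per group. Gpx4 is lower in 4 of 5 HFD+mTAC mice than in every control, Cat and Ucp2 are higher in 4 of 5, and in Txnrd2 mice TT-585 and TT-589 lie far under the others.

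Among subunits of the superoxide-producing oxidases, Cybb was the member with the smallest p. It encodes NOX2, the catalytic subunit of the phagocyte NADPH oxidase, which is also found in endothelial cells and cardiomyocytes. Its CPM was 13.8, 10.8, 9.50, 11.7 and 7.71 in controls against 17.1, 18.1, 13.3, 11.9 and 10.8 in HFD+mTAC mice. Mice TT-588 and TT-589 lay above the control range and the other 3 HFD+mTAC mice within it (log2 fold change 0.41, SE 0.18, edgeR adjusted p = 0.597, unadjusted p = 0.0464). Only 3 of the 10 fits that left out 1 mouse kept an unadjusted p under 0.05. Of the 6 macrophage markers 3 had the higher mean in HFD+mTAC mice, their log2 fold changes ran from -0.29 for Fcgr1 to 0.19 for Csf1r, and 0 passed the test (edgeR). The 4 neutrophil markers, of which 2 were tested, summed to 4.65 to 9.97 CPM in control and 0.847 to 8.50 CPM in HFD+mTAC mice. S100a9 had a log2 fold change of -1.10 (SE 0.44, edgeR adjusted p = 0.519, unadjusted p = 0.0280) and S100a8 of -0.74 (SE 0.73). The part of these cells in the Cybb values was not tested.

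Cyba, which encodes the p22phox partner that NOX2 and NOX4 both need, had 32.1, 27.1, 21.5, 27.7 and 32.2 CPM in controls against 20.6, 23.7, 37.0, 34.3 and 24.4 CPM in HFD+mTAC mice. Its log2 fold change was -0.01 (SE 0.17, edgeR adjusted p = 0.996) and turned to 0.21 on TPM. Nox4, which encodes a constitutively active oxidase that yields mostly hydrogen peroxide, had low counts, with 2.11, 2.00, 1.27, 1.97 and 3.46 CPM in control and 2.63, 1.21, 2.69, 2.39 and 3.31 CPM in HFD+mTAC mice. The groups overlapped over most of their range, and the log2 fold change of 0.19 (SE 0.31, edgeR adjusted p = 0.923) ran from 0.04 to 0.41 as 1 mouse was left out, lowest without control mouse TT-585 and highest without control mouse TT-587.

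The NRF2 switch and its targets were split in direction, with 2 of 5 higher, 3 of 5 lower and none past the test (edgeR). Nfe2l2 had 125, 150, 119, 148 and 123 CPM in controls against 133, 115, 117, 115 and 140 CPM in HFD+mTAC mice (log2 fold change -0.10, SE 0.10, edgeR adjusted p = 0.842). Keap1 had 76.5, 78.9, 84.7, 77.6 and 72.2 CPM in controls against 80.3, 92.4, 80.9, 86.5 and 85.9 CPM in HFD+mTAC mice (log2 fold change 0.13, SE 0.07, edgeR adjusted p = 0.698). Only control mouse TT-585 kept the Keap1 groups from lying apart in CPM, and without that mouse 3.23% of all genes tested lay apart. On TPM the Keap1 groups overlapped. The log2 fold change of Keap1 was 0.06 on log2(TPM + 1) and 0.03 with transcript lengths as offset. Transcript levels of Nfe2l2 and Keap1 say nothing of NRF2 protein, which is regulated by degradation.

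Srxn1 encodes sulfiredoxin, which restores over-oxidized peroxiredoxins, and its promoter holds both motifs shown above. Its CPM was 46.4, 41.3, 33.7, 34.5 and 38.8 in controls against 33.6, 29.1, 35.7, 33.7 and 32.2 in HFD+mTAC mice. All HFD+mTAC mice but TT-590 were below every control, although the gap to control mice TT-585 and TT-586 was narrow. The log2 fold change was -0.25 (SE 0.10, edgeR adjusted p = 0.545, unadjusted p = 0.0342), and 6 of 10 fits without 1 mouse kept the unadjusted p under 0.05. For Srxn1 it was -0.13 on log2(TPM + 1) (limma, unadjusted p = 0.198) and -0.18 with transcript lengths as offset. Nqo1, the quinone reductase often used to read NRF2 activity, had 56.4 to 87.9 CPM in control and 51.8 to 73.7 CPM in HFD+mTAC mice (log2 fold change -0.06, SE 0.13). Hmox1, the inducible heme oxygenase, had 9.94 to 16.2 and 11.7 to 21.5 CPM (log2 fold change 0.22, SE 0.19), with the highest value in mouse TT-590. Without that mouse the log2 fold change of Hmox1 was 0.04. Neither Nqo1 nor Hmox1 passed the test (edgeR adjusted p = 0.945 and 0.828).

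In the glutathione group, Gclm had the smallest p. It encodes the modifier subunit of glutamate-cysteine ligase, the rate-limiting step of glutathione synthesis. Its CPM was 32.0, 45.0, 28.8, 53.1 and 61.1 in controls against 53.4, 57.6, 56.4, 58.7 and 55.2 in HFD+mTAC mice. The HFD+mTAC mice were tightly grouped and the control mice spread widely, with SDs of 2.06 and 13.7 CPM, and control mouse TT-587 was above all HFD+mTAC mice. This gave a log2 fold change of 0.36 (SE 0.18, edgeR adjusted p = 0.631, unadjusted p = 0.0645), and of 0.24 without control mouse TT-585 and 0.50 without control mouse TT-587. Gclc, the catalytic subunit of the same ligase, had 20.6 ± 2.71 CPM in control and 21.9 ± 0.692 CPM in HFD+mTAC mice (SD, n = 5 each), and its log2 fold change was 0.09 (SE 0.10). Glutathione synthetase Gss and glutathione reductase Gsr had log2 fold changes of -0.02 (SE 0.11) and 0.10 (SE 0.10), and no member of the group passed the test (edgeR).

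In the thioredoxin system, all 5 members had log2 fold changes of -0.09 to 0.08 and none passed the test (edgeR). Txn2, the mitochondrial thioredoxin, had the smallest p, with 311, 346, 309, 293 and 314 CPM in controls against 277, 303, 305, 299 and 295 CPM in HFD+mTAC mice (log2 fold change -0.09, SE 0.07, edgeR adjusted p = 0.805). The groups overlapped through control mouse TT-586. Txn1, the cytosolic thioredoxin, had 64.2 to 81.5 and 58.9 to 78.4 CPM, and Txnrd1, its reductase, 39.3 to 58.1 and 44.5 to 62.7 CPM. Txnip, which binds and inhibits thioredoxin and responds to glucose, had 782 to 1048 and 743 to 1209 CPM (log2 fold change 0.08, SE 0.13).

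Txnrd2, the mitochondrial thioredoxin reductase, was the least certain of the set because 2 mice stood apart, 1 in each group. Its CPM was 40.5, 42.4, 4.85, 34.9 and 39.5 in controls against 31.4, 14.0, 40.3, 38.0 and 40.1 in HFD+mTAC mice. Mice TT-585 and TT-589 thus had 4.85 and 14.0 CPM where the other 8 had 31.4 to 42.4. Its log2 fold change was 0.02 with an SE of 0.44, the largest SE of the 36. It was -0.07 without mice TT-585 and TT-589, and -0.27 without mouse TT-585 alone.

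The peroxiredoxins, thiol peroxidases that are recycled by thioredoxin or glutathione, were an even group. Their log2 fold changes lay between -0.10 and 0.05, with 1 higher and 5 lower, and none passed the test (edgeR). On log2(TPM + 1) the sign turned in Prdx5 and Prdx6. Prdx1, which holds the stricter NRF2 site, had the smallest p, with 408, 406, 357, 350 and 389 CPM in controls against 359, 369, 352, 360 and 373 CPM in HFD+mTAC mice (log2 fold change -0.08, SE 0.07, edgeR adjusted p = 0.844). The HFD+mTAC mice lay inside the control range. The mitochondrial Prdx3 had 238 to 271 CPM in control and 240 to 282 CPM in HFD+mTAC mice (log2 fold change 0.05, SE 0.07). Prdx2, which is abundant in red cells, had 374 to 437 CPM in control and 362 to 395 CPM in HFD+mTAC mice. The 5 erythroid markers summed to 157 to 1808 CPM in control and 170 to 1862 CPM in HFD+mTAC mice. The part of red cells in the Prdx2 values was not tested. Prdx4, the form of the endoplasmic reticulum, had 19.0 to 23.5 and 17.4 to 24.8 CPM, and Prdx6, which uses glutathione, 250 to 280 and 257 to 278 CPM.

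None of the 3 superoxide dismutases passed the test (edgeR). Sod3, the extracellular form, had the smallest p, with 128, 112, 74.1, 92.5 and 101 CPM in controls against 106, 90.4, 131, 115 and 99.4 CPM in HFD+mTAC mice (log2 fold change 0.10, SE 0.14, edgeR adjusted p = 0.918). The groups shared most of their range. Sod1 had 397 to 551 and 402 to 569 CPM (log2 fold change 0.04, SE 0.11), and Sod2 had 347 to 486 and 383 to 489 CPM (log2 fold change -0.04, SE 0.11).

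The glutathione transferases couple glutathione to electrophiles such as lipid aldehydes. Gsta4, which prefers 4-hydroxynonenal, had 126, 106, 98.9, 120 and 127 CPM in controls against 95.4, 102, 118, 99.5 and 111 CPM in HFD+mTAC mice (log2 fold change -0.14, SE 0.09, edgeR adjusted p = 0.771). Gstm1 had 218 to 271 and 205 to 240 CPM (log2 fold change -0.12, SE 0.09). Both were lower on average, with overlapping groups. Gsta3 went the other way, with 13.0, 11.2, 12.2, 13.4 and 20.8 CPM in controls against 13.8, 18.6, 17.5, 18.4 and 14.7 CPM in HFD+mTAC mice (log2 fold change 0.23, SE 0.17, edgeR adjusted p = 0.780). Control mouse TT-587 was the highest of all 10, and the other 4 controls were below every HFD+mTAC mouse. Without mouse TT-587 the log2 fold change of Gsta3 was 0.41 (edgeR, unadjusted p = 0.00670), and on log2(TPM + 1) with all mice it was 0.49 (limma adjusted p = 0.540, unadjusted p = 0.00431).

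The metallothioneins bind zinc and copper, scavenge radicals and respond to metals and glucocorticoids. Mt1 had 153, 194, 120, 146 and 145 CPM in controls against 127, 156, 278, 200 and 171 CPM in HFD+mTAC mice (log2 fold change 0.30, SE 0.19, edgeR adjusted p = 0.736). Leaving out 1 mouse moved the log2 fold change of Mt1 to between 0.11, without mouse TT-590, and 0.41, without mouse TT-588. Mouse TT-590 had the highest value, and it was also the highest for Mt2, at 25.8 CPM, and for Hmox1. Mt2, with the stricter NRF2 site, had 9.44 to 24.8 CPM in control and 6.17 to 25.8 CPM in HFD+mTAC mice (log2 fold change 0.11, SE 0.35). Both genes were given the same effective length of 251 bases in every mouse.

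The choice between counts and TPM mattered most for 3 genes, Ucp2, Cat and Gclm, in which the log2 fold change moved by over 0.3. Average effective lengths differed at least 2-fold between mice in 9 of the 36 genes (Cat, Gss, Prdx5, Cybb, Ucp2, Txnrd2, Gclm, Txnip and Txn2), against 27.0% of all genes tested. A longer average length at equal counts gives a lower TPM. In Cat, Cybb, Txnip and Txn2 some of these lengths were above the longest annotated transcript, of 2613, 4752, 2827 and 2049 bases. Such lengths are not those of annotated transcripts alone.

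**Figure D4:**
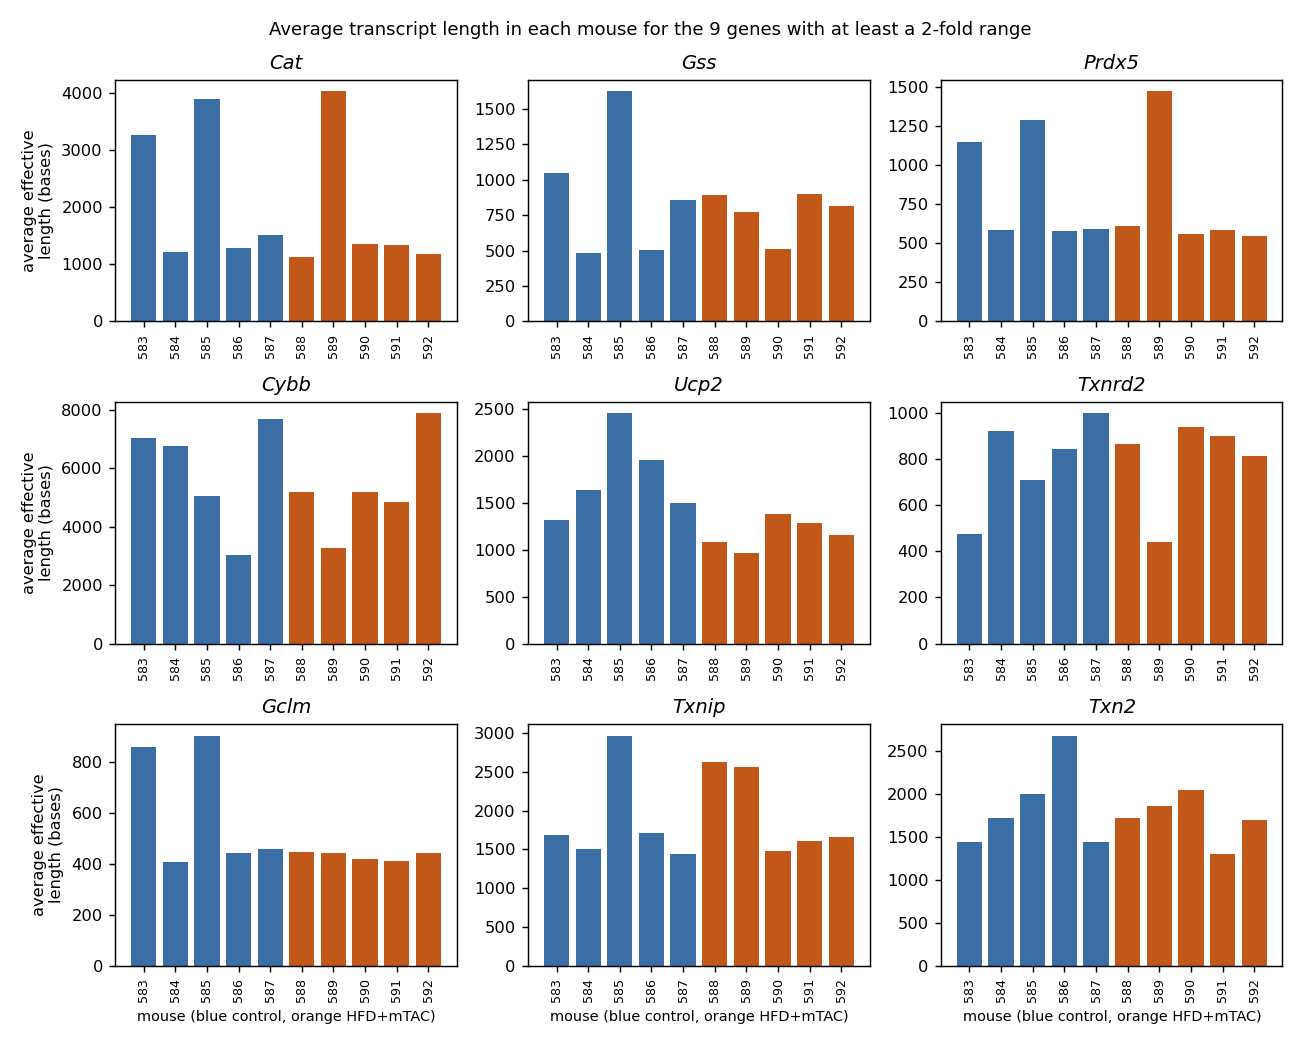
Average effective transcript length in bases (y axis, from 0) of the 9 redox genes with at least a 2-fold range, in each control mouse (blue) and HFD+mTAC mouse (orange). Cat and Prdx5 are long in the same 3 mice, TT-583, TT-585 and TT-589, and Ucp2 tends to be shorter in HFD+mTAC mice.

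In Ucp2 the lengths went with the groups. They were 1316, 1635, 2451, 1959 and 1494 bases in control mice and 1086, 968, 1384, 1288 and 1152 bases in HFD+mTAC mice, with only mouse TT-590 above a control. On TPM the groups lay apart, at 56.7, 38.8, 21.5, 28.2 and 55.2 in controls against 74.2, 93.1, 82.6, 95.0 and 83.8 in HFD+mTAC mice. The log2 fold change was 1.17 on log2(TPM + 1), against 0.56 on counts, and did not pass the test either (limma adjusted p = 0.344). Together with Gsta3 (21.1 to 33.0 and 33.5 to 46.1 TPM), Ucp2 was 1 of 2 genes of the 36 whose groups did not overlap on TPM, where 1.3% of all genes tested did not.

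In Cat the lengths were long in 3 mice of both groups. They were 3265, 3896 and 4023 bases in mice TT-583, TT-585 and TT-589 and 1117 to 1508 bases in the other 7. Mouse TT-589, with the highest CPM of all, had only 147 TPM, and mouse TT-588, with almost the same CPM, had 553 TPM. The log2 fold change on log2(TPM + 1) was 0.71 with an unadjusted p of 0.108 (limma, adjusted p = 0.797). Prdx5, the peroxiredoxin of mitochondria and peroxisomes, was long in the same 3 mice, at 1149, 1287 and 1471 bases against 548 to 611 in the others. Its CPM was 487 to 623 in control and 426 to 595 in HFD+mTAC mice, and its log2 fold change turned from -0.10 on counts to 0.14 on log2(TPM + 1).

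In Gclm length and count went together. Mice TT-583 and TT-585 had lengths of 859 and 904 bases where the other 8 had 407 to 457, and the same 2 mice had the lowest counts, 32.0 and 28.8 CPM. On TPM they were at 38.7 and 33.8, against 108 to 153 in the other 8 mice, and the log2 fold change was 0.88 (limma, adjusted p = 0.713). When mice TT-583, TT-585 and TT-589 were left out, a choice made after seeing these lengths, 2 of the 36 genes (5.56%) kept an unadjusted p under 0.05, Gpx4 and Ucp2, near the 4.78% of all genes tested in that setting, and 0 had an adjusted p under 0.05 (edgeR).

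**Figure D5:**
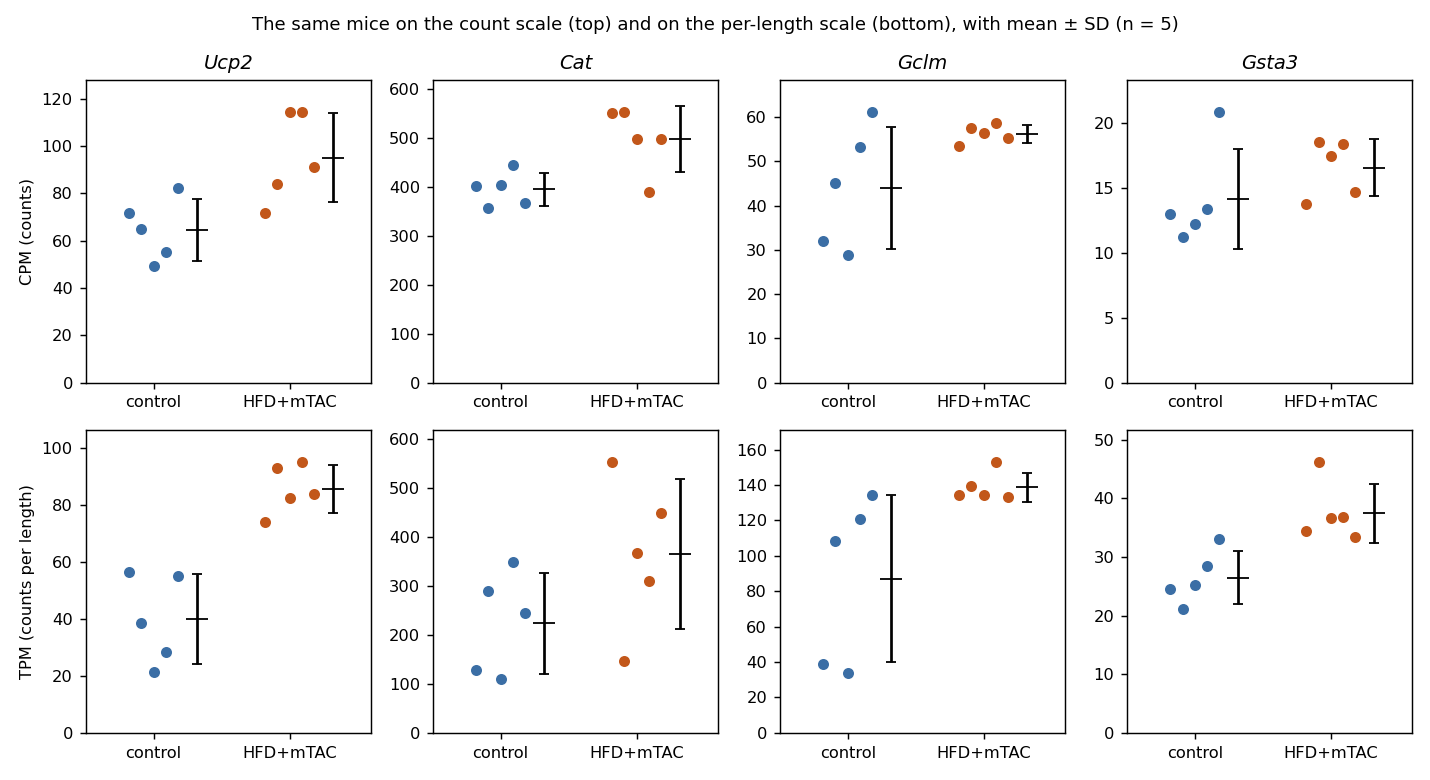
CPM (top row) and TPM (bottom row) of Ucp2, Cat, Gclm and Gsta3 in each mouse (points, in the order of the mouse numbers), with the mean and SD of 5 mice per group. The groups of Ucp2 and Gsta3 lie apart on TPM only, and in Gclm control mice TT-583 and TT-585 are low on both scales.

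To place these genes in the wider pathway, 106 further redox genes were examined, of which 97 were tested. Of the 97, 49 had the higher mean in HFD+mTAC mice and 48 the lower, with a median log2 fold change of 0.00, and 0 had an adjusted p under 0.05 with edgeR. DESeq2 called 3 of them, Gstm2 (adjusted p = 0.0122), Gstk1 (adjusted p = 0.0356) and Ucp3 (adjusted p = 0.00762). With edgeR, 13 of the 97 (13.4%, beside the background of 8.27%) had an unadjusted p under 0.05, 9 higher and 4 lower. In CPM the groups did not overlap in 3 of the 97 (3.09% beside 1.96%), Gstm2, Gstk1 and Selenos, all lower. On TPM these 3 overlapped, with log2 fold changes of -0.29, -0.19 and -0.35 on log2(TPM + 1). There 1 of the 97 lay apart, Gsta2, higher in HFD+mTAC mice, where 1.3% of all genes tested did.

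The 4 lower genes with the smallest p were 3 glutathione transferases and a selenoprotein. Gstm2 had 177 to 271 CPM in control and 151 to 162 CPM in HFD+mTAC mice (log2 fold change -0.44, SE 0.10, edgeR adjusted p = 0.244). The mitochondrial and peroxisomal Gstk1 had 99.1 to 105 and 67.6 to 90.4 CPM (log2 fold change -0.33, SE 0.08, edgeR adjusted p = 0.261). Gstm7 had a log2 fold change of -0.32 (SE 0.09), and Selenos, listed under its older symbol Vimp and part of the machinery that removes misfolded proteins from the endoplasmic reticulum, of -0.31 (SE 0.09). Transferases also went the other way. Of the 17 tested in both lists, counted after their values were seen, 13 were lower and 4 higher in counts, the higher ones being Gsta3 of the 36, Gsta2, Gstt1 (log2 fold change 0.31, SE 0.16) and Mgst3, and on log2(TPM + 1) Gstm1, Gstm4, Gstm5 and Gsta1 turned from lower to higher. No test was made of the transferases as a family.

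The 4 higher genes with the smallest p were Ucp3, Xdh, Gsta2 and Me1. Ucp3, the muscle uncoupling protein and a relative of Ucp2, had 32.8, 40.7, 45.1, 43.2 and 35.2 CPM in controls against 87.3, 88.6, 80.1, 36.7 and 71.8 CPM in HFD+mTAC mice (log2 fold change 0.89, SE 0.20, edgeR adjusted p = 0.199). As for Cat, mouse TT-591 lay within the control range and the other 4 HFD+mTAC mice above it. Xdh, a source of superoxide in purine breakdown, had 102 to 151 and 147 to 185 CPM (log2 fold change 0.40, SE 0.11). Me1, the malic enzyme that supplies cytosolic NADPH, had 137 to 194 and 183 to 267 CPM (log2 fold change 0.38, SE 0.12), again with the lowest HFD+mTAC value in mouse TT-591. Gsta2 was scarce, at 0.157 to 0.846 and 0.819 to 2.21 CPM (log2 fold change 1.37, SE 0.41).

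By sublist, 4 of the 22 regulators and further targets of NRF2 (18.2%, beside 8.27% of all genes tested) had an unadjusted p under 0.05, all 4 higher, and of the 22 as a whole 13 were higher and 9 lower. The 4 were Nfe2l1 (log2 fold change 0.36, SE 0.14), Abcc1 (0.25, SE 0.09), Ephx1 (0.40, SE 0.16) and Aox1 (0.25, SE 0.12), named after their values were seen, with edgeR adjusted p of 0.488 to 0.600. Of the 23 other glutathione enzymes and cystine uptake genes, 4 (17.4%) had an unadjusted p under 0.05, 1 higher and 3 lower. Of the 13 genes of other oxidant defence, 2 (15.4%) did, 2 higher. The remaining sublists had shares of 6.25 to 9.09%. Of the 5 members of the NRF2 switch and its inducible targets described above, 1 did, Srxn1, which was lower. Differences between sublists were not tested.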

How the data were processed

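RNA from the left ventricle of 5 control and 5 HFD+mTAC mice was sequenced, grouped as the sample labels state. By the study's methods, libraries were made with a stranded poly(A) kit, trimmed with fastp and quantified with salmon (1.6.0 per the labels) against GENCODE release M25, and the authors summed transcripts to genes with tximport. The labels name the human build hg38, which the mouse gene symbols go against, and they and the methods differ on read layout. For each gene and mouse the authors deposited an estimated count, a TPM value and an average effective transcript length. Of the counts, 20.1% were not whole and were rounded.

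Symbols were matched to GENCODE M21 (GRCm38), 27862 directly and 857 by an older symbol, and 845 were not matched. Names such as Vimp and Emr1 are older than M21, so the files may rest on another release than the methods name, and lengths of annotated transcripts given here are those of M21. Nuclear protein-coding genes with an estimated count of at least 1 in at least 9 of 10 mice were tested with edgeR (4.0.16, R 4.3.3), using TMM normalization, a quasi-likelihood fit on group alone and Benjamini-Hochberg adjustment over all 13297 genes. CPM used the same normalization, and TPM was rescaled over the genes tested. Limma (3.58.1) on log2(TPM + 1), DESeq2 (1.42.0) and other settings were alternatives. No 2 libraries of a group agreed within sampling noise (chi-square per degree of freedom of at least 12.9). The tests were checked on simulated counts. Where a log2 difference of 1 was put in, edgeR found 82 of 100 genes and DESeq2 85 of 100. At a difference of 0.5 edgeR found 31 of 100 and DESeq2 37 of 100. Among 13033 genes simulated without a difference, edgeR called 5 and DESeq2 19.

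All 36 members could be named. Values in every mouse are given for members with an unadjusted p under 0.05, the member with the smallest p in each role group, Nfe2l2, Keap1, Nox4, Cyba and Cybb, and, chosen after their values were seen, Txnrd2 and Gsta3. Of the related genes, the 4 with the smallest p in each direction are named. The members, lists and tests were chosen with earlier results of these data known. Each mouse is 1 animal with 1 library, and the p-values weigh the difference between the groups against the spread between mice. That spread holds differences between animals and between libraries together. Of the 36 genes, 13 overlap another annotated gene and 3 have a pseudogene under their own name. Whether salmon used the strand is not given in the sources used here.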

Additional observations from a re-analysis of the deposited data

Results flagged for a closer look

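In each group of 5 mice, a value was marked when its gap to the nearest other mouse exceeded 0.71 of the range of the group, which chance alone gives in about 1 in 20 groups. Over 72 groups of CPM values 3 were marked. Txnrd2 had 4.85 CPM in control mouse TT-585, where the other controls had 34.9 to 42.4. Hmox1 had 21.5 CPM in HFD+mTAC mouse TT-590, where the others had 11.7 to 14.5. Gsta3 had 20.8 CPM in control mouse TT-587, where the others had 11.2 to 13.4.

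Average effective lengths were marked in the same way for the 9 genes whose lengths differed at least 2-fold, and 4 of 18 groups held a marked value. These genes were picked for a wide range between mice, so the chance rate above does not apply to them. Over all 36 genes, 5 of the 68 groups whose lengths were not all equal held one. In HFD+mTAC mouse TT-589 the length was 4023 bases for Cat (1117 to 1356 in the others), 1471 for Prdx5 (548 to 611) and 441 for Txnrd2 (814 to 937). In control mouse TT-585 it was 2966 bases for Txnip (1433 to 1709). Mice TT-585 and TT-589 also had the 2 lowest Txnrd2 counts, 4.85 and 14.0 CPM.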

How the results depend on the processing

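The 36 genes gave 0 with an adjusted p under 0.05 in every setting run except DESeq2 (1, Gpx4, whose log2 fold change there was -0.60). The count with an unadjusted p under 0.05, 5 with edgeR, was 3 with transcript lengths as offset (8.33%, beside 7.45% of all genes tested), 2 without mice TT-583, TT-585 and TT-589 (5.56% beside 4.78%), and 3 to 6 when 1 mouse was left out (8.33 to 16.7% beside 6.35 to 9.08%, 3 without control mouse TT-584 and 3 without HFD+mTAC mouse TT-589). Groups that did not overlap, 0 in CPM, numbered 2 on TPM (5.56% beside 1.3%), 2 without mice TT-585 and TT-589 (Keap1 and Gpx4, 5.56% beside 4.69%), the same 2 genes without mice TT-583, TT-585 and TT-589 (5.56% beside 6.39%), and 0 to 3 when 1 mouse was left out (0 to 8.33% beside 2.55 to 3.76%), 3 without control mouse TT-586 (Gclc, Txn2 and Gpx4) and 3 without control mouse TT-587 (Gclm, Gsta3 and Ucp2). The median log2 fold change of the set stayed within -0.02 and 0.06 over all settings. Over all genes tested, 8 with edgeR became 120 with DESeq2, 1 with limma on log2(TPM + 1) or log2(TPM + 0.1), 1 with transcript lengths as offset, 3 without mice TT-585 and TT-589, 0 without mice TT-583, TT-585 and TT-589, and 1 to 9 when 1 mouse was left out. The related genes with an unadjusted p under 0.05, 13 with edgeR, were 8 with limma on log2(TPM + 1). The cause of these shifts was not tested. Of 792 single-gene values, 729 kept their direction and side of the threshold and 62 changed sign, in 15 genes whose edgeR log2 fold change was at most 0.12 in size. On limma with log2(TPM + 1) and log2(TPM + 0.1), the sign changed in Gss (0.13 and 0.14), Gsr (-0.0053 and -0.0084), Txn2 (0.059 and 0.060), Prdx5 (0.14 and 0.14), Prdx6 (0.072 and 0.072), Sod3 (-0.021 and -0.019), Gstm1 (0.030 and 0.030) and Cyba (0.21 and 0.21). With transcript lengths as offset it changed in Gss (0.045), Gsr (-0.039), Txn2 (0.0031), Txnrd1 (-0.012), Txnrd2 (-0.062), Txnip (-0.020), Prdx5 (0.097), Prdx6 (0.032), Sod3 (-0.086) and Cyba (0.17). With upper-quartile normalization Cyba was 0.00089. Without mice TT-583, TT-585 and TT-589, Txnrd2 was -0.058, Prdx6 0.0040, Sod1 -0.00027 and Cyba 0.0013, and without mice TT-585 and TT-589 Txnrd2 was -0.074. Leaving out 1 mouse gave -0.12 to 0.046 for Nqo1, -0.083 to 0.032 for Gss, -0.037 to 0.10 for Txnrd1, -0.27 to 0.21 for Txnrd2, -0.016 to 0.16 for Txnip, -0.081 to 0.044 for Prdx4, -0.038 to 0.0010 for Prdx6, -0.040 to 0.11 for Sod1, -0.00032 to 0.19 for Sod3, -0.12 to 0.38 for Mt2 and -0.13 to 0.083 for Cyba. The settings without mice TT-585 and TT-589, and without mice TT-583, TT-585 and TT-589, were chosen after seeing the data. No paired analysis was possible because the mouse numbers of the 2 groups do not repeat. With 5 mice per group and a median SE of 0.12 over the 36 genes, small changes can be missed. So can a log2 difference of 0.5, which edgeR found in only 31 of the 100 genes simulated with it.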

Other observations

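A gene of the wider list, singled out after its values were seen, varied more among control mice than between the groups. Nnt encodes the inner mitochondrial membrane transhydrogenase that makes NADPH for the glutathione and thioredoxin systems, and the C57BL/6J substrain is known for carrying a deletion in it. Its CPM was 594 and 599 in control mice TT-583 and TT-584 and 1580, 1445 and 1266 in control mice TT-585, TT-586 and TT-587. The HFD+mTAC mice had 1499, 1558, 1139, 1002 and 1351 CPM, all above mice TT-583 and TT-584. The log2 fold change of 0.26 (SE 0.27, edgeR adjusted p = 0.866) therefore rests on a control group with 2 levels, and whether the mice differ in genotype was not tested. Mice TT-583 and TT-584 also had the lowest mitochondrial shares of counts, 43.8 and 44.0%, where the others had 46.4 to 52.7%. The part of such library differences in the Nnt values was not tested.

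Mouse TT-591 was the lowest of the HFD+mTAC mice in Cat (388 CPM), Ucp3 (36.7 CPM), Me1 (183 CPM) and Abcc1 (37.5 CPM), genes picked after their values were seen. These genes had the higher mean in HFD+mTAC mice. Mouse TT-591 was also the lowest of the group in genes with the lower mean there, among them Gpx4 (283 CPM), Selenos (27.4 CPM), Nqo1 (51.8 CPM) and Sod2 (383 CPM). How often it was the lowest over all genes was not counted. In Ucp2 it was level with mouse TT-590 at the top of the group (114 CPM each). It also had the highest endothelial marker sum (2122 CPM) of the group, and the part of cell composition in these values was not tested.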
